A study of Mus musculus with 16 samples.

Results

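Chromatin accessibility was examined at 9 genes that define B cell identity (Cd79a, Cd79b, Ms4a1, Pax5, Ebf1, Cr2, Blk, Cd22 and Fcer2a), out of 21884 protein-coding mouse genes. The genes were chosen by name. For each gene, ATAC-Seq peaks were taken whose summit lay within 3 kb of an annotated GENCODE vM21 start (the promoter) or in the gene body extended by 20 kb on each side. ATAC-Seq uses a transposase to cut open chromatin, so that a peak marks a stretch of accessible DNA. The libraries came from spleen, lung, heart, muscle, kidney, liver and both brown and white adipose tissue of male C57BL/6 mice, either fed or fasted for 24 h, with 3 mice per state acquired at 12 weeks of age. Tissue of the mice of 1 state was pooled before the assay, which gave 16 libraries, 1 for each tissue and state, and no replicates. The labels name no transgene or deletion. All comparisons within a tissue therefore set 1 library against 1 library, and the 8 tissues of a state came from the same mice.

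B cells recognise antigen through a surface immunoglobulin that signals through the proteins encoded by Cd79a and Cd79b. Ebf1 and Pax5 encode the transcription factors that specify and maintain the lineage, and the other genes encode a tyrosine kinase of that signalling pathway (Blk) or surface proteins of mature B cells: Ms4a1 (CD20), Cr2 (complement receptors CD21 and CD35), Cd22 (an inhibitory lectin) and Fcer2a (the low-affinity IgE receptor CD23). The spleen holds large B cell follicles, and the lung holds B cells in its vessels and in scattered lymphoid tissue. In such whole tissues, fewer B cells and less accessibility per cell cannot be told apart.

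Each promoter was scored by its percentile, that is, the percent of peaks deposited for that library with a weaker peak p-value than the strongest promoter peak of the gene, with 0 for a gene without any peak there. The lists held 298996 to 299529 rows each. The number of transposase tags expected from background, which scales with depth, ranged from 2.80 in fed liver to 12.8 in fed brown adipose, was 3.21 and 3.35 in fed and fasting spleen, and was 8.92 and 7.14 in fed and fasting lung. The labelled tissues matched their markers: the mean promoter percentile of each of 7 marker lists, for liver, muscle, adipocytes, brown adipose, heart, lung and kidney, was highest in the tissue it marks (brown adipose for the adipocyte list).

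The strongest promoter peak in fasting spleen is shown as sequence for 7 of the genes. In other libraries the strongest promoter peak of a gene could lie at another place. Each line gives the part of the 201 bp around the summit that no annotated UTR overlaps, in GRCm38, 5′ to 3′ on the strand of the gene. Capitals mark matches, on either strand, to 6 motifs searched by their letters: EBF (CCCNNGGGA), an octamer (ATGCAAAT), a PU.1 core (GAGGAAG), an ETS-IRF composite (GGAANNGAA), an E2A E-box (CAGGTG) and RUNX (TGTGGTT).
Cd79a, chr7:24897275-24897380, plus strand: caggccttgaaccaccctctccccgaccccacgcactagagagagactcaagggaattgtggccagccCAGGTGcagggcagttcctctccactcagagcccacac
Cr2, chr1:195176717-195176834, minus strand: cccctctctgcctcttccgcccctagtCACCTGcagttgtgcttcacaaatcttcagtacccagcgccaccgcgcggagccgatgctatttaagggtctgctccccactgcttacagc
Cd22, chr7:30879029-30879176, minus strand: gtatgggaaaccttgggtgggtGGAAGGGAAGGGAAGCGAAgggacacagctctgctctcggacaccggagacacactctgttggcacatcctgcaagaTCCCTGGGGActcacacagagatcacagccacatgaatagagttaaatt
Fcer2a, chr8:3694176-3694347, minus strand: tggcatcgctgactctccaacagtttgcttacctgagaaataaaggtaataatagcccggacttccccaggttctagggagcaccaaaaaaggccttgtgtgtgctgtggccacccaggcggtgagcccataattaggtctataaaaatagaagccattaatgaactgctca
Blk, chr14:63419508-63419708, minus strand: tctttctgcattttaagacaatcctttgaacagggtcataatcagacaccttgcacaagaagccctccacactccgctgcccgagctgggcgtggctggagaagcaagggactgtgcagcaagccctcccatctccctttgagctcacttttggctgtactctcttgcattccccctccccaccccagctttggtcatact
Pax5, chr4:44709162-44709362, minus strand: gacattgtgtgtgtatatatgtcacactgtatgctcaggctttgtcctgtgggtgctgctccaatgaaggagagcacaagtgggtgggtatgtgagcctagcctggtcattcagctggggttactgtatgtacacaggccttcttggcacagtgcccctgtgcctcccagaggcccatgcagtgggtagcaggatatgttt
Ebf1, chr11:44617194-44617316, plus strand: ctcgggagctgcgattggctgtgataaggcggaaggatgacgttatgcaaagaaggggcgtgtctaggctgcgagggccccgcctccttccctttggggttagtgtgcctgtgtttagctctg
Matches were few. The E-box letters occurred in 2 of the 7 full windows (Cd79a and Cr2), against 18.5% of 95335 windows of the same length around fasting spleen summits within 3 kb of a start. The EBF letters occurred in 1 window (Cd22), against 6.04% of those windows, and the PU.1 letters in 1 (Cr2), against 10.5%. The ETS-IRF letters occurred in Cd22, where matches overlapped each other and are printed as 1 run of capitals, against 4.69%. Neither the octamer nor the RUNX letters occurred in any of the 7, against 0.706% and 3.33%. The PU.1 match of Cr2 lies in the part not printed.

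All 9 genes had a promoter peak at q below 0.01 in both spleen libraries and in both lung libraries. Such peaks were common: 73.1% of all protein-coding genes had one in both spleen libraries and 72.3% in both lung libraries, so that presence alone did not set the 9 genes apart there. In the other 12 libraries, between 3 and 5 of the 9 genes had one, while 69.3% to 76.7% of all genes did. The mean promoter percentile of the 9 genes was 91.4 in fed and 93.0 in fasting spleen, 81.6 in fed and 67.8 in fasting lung, and between 29.2 (fasting white adipose) and 42.5 (fed heart) elsewhere. In spleen their median, 91.0 fed and 92.1 fasting, was near that of all genes with a promoter peak (91.7 and 91.4), and in fed and fasting lung it was 82.8 and 73.4 against 93.4 and 93.1.

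**Figure D1:**
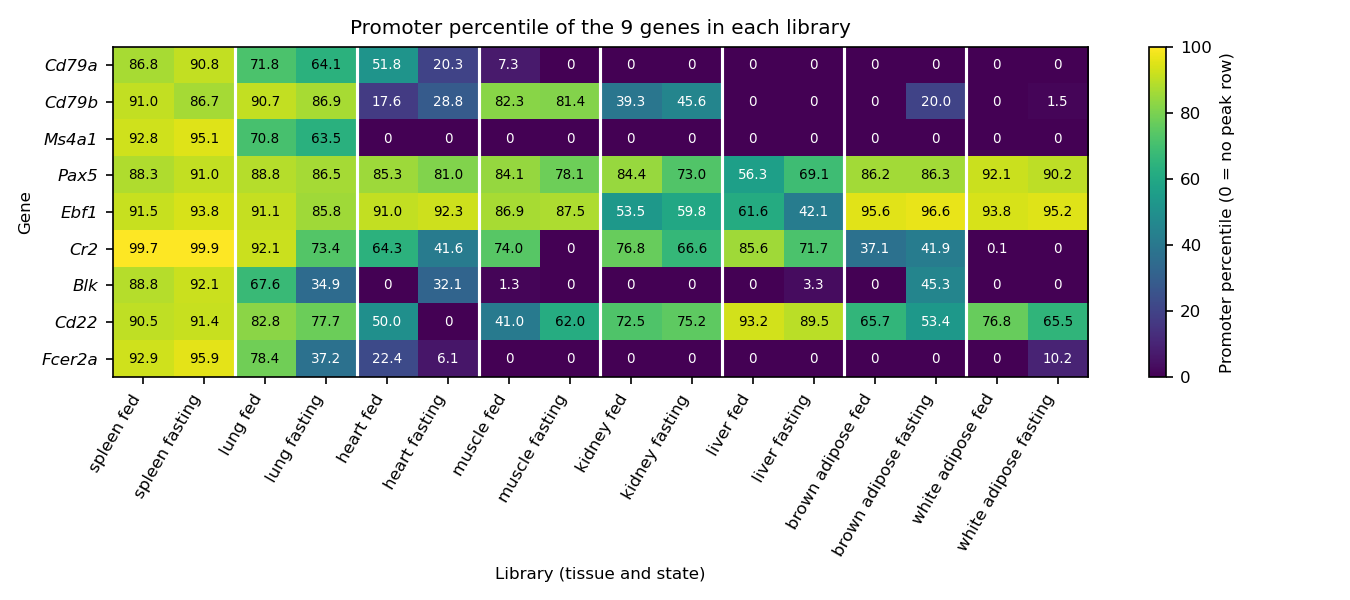
Promoter percentile (0 to 100, colour and printed value) of each of the 9 genes (rows) in each of the 16 libraries (columns), 1 pooled library per column and 0 where no peak was listed. The spleen columns lie between 86.7 and 99.9 for every gene, whereas Cd79a, Ms4a1, Blk and Fcer2a are at or near 0 in most libraries of the other 6 tissues and Pax5 and Ebf1 are above 40 in all.

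The 2 signalling subunits of the B cell receptor differed from each other outside spleen and lung. The Cd79a promoter percentile was 86.8 and 90.8 in fed and fasting spleen, 71.8 and 64.1 in lung, 51.8 and 20.3 in heart and 7.27 in fed muscle, and 0 in the other 9 libraries. Spleen was thus highest, lung came next, and neither overlapped with any other tissue. The region lay at chr7:24897167-24897686, with its summit 6 bp before the start, and held 65 summit tags in fed and 85 in fasting spleen. For Cd79b the values were 91.0 and 86.7 in spleen and 90.7 and 86.9 in lung, so that spleen and lung overlapped. Muscle followed with 82.3 and 81.4, kidney with 39.3 and 45.6 and heart with 17.6 and 28.8, and the liver and adipose libraries ranged from 0 to 20.01. The muscle peak was at another place than the spleen peak. In spleen and lung the summit was in a region further into the gene, with a mean percentile of 88.8 in both spleen and lung and 2.76 in the other 6 tissues, whereas in fed and fasting muscle it was 308 and 323 bp downstream of the most upstream start. Cd79b lies beside the muscle sodium channel gene Scn4a, and whether the muscle peak relates to that gene was not tested.

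Among the surface proteins, Ms4a1 was the most restricted. Its promoter percentile was 92.8 and 95.1 in fed and fasting spleen and 70.8 and 63.5 in lung, and no promoter peak was listed in any of the other 12 libraries. Fcer2a came close to this pattern, with 92.9 and 95.9 in spleen, 78.4 and 37.2 in lung, 22.4 and 6.15 in heart and 10.2 in fasting white adipose, and 0 elsewhere. In fed spleen the strongest promoter peak lay 6441 bp downstream, near an internal start, with a region at the most upstream start at almost the same percentile (92.8). The region at the most upstream start (chr8:3693926-3694479) had peaks in spleen and lung and in no other tissue, and the weak heart and adipose peaks lay 1421 to 5492 bp downstream, near other annotated starts of the gene.

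Cr2 and Cd22 had promoter peaks in more tissues. The Cr2 percentile reached 99.7 and 99.9 in fed and fasting spleen, the highest of the 9 genes, with 199 and 229 summit tags, or 62.1 and 68.3 times the background of the library. The fold enrichment over the tags expected at the peak itself was 24.6 and 25.3. The Cr2 percentile was 92.1 and 73.4 in lung, 85.6 and 71.7 in liver, 76.8 and 66.6 in kidney, 64.3 and 41.6 in heart, 37.1 and 41.9 in brown adipose, 74.0 and 0 in muscle and 0.101 and 0 in white adipose. Spleen exceeded all other libraries, whereas the lung range overlapped with that of liver and others. All Cr2 peaks lay at the same place, with summits from 93 bp upstream to 19 bp downstream of the most upstream start. Cd22 showed no such order: it was 90.5 and 91.4 in spleen, 82.8 and 77.7 in lung and 93.2 and 89.5 in liver, and the other 10 libraries ranged from 0 to 76.8. The liver value exceeded spleen in the fed state.

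The Cd22 peaks came from different elements, however. In lung, liver, muscle, kidney and both adipose tissues the strongest promoter peak lay at an internal annotated start (chr7:30872918-30873957), 7020 to 7121 bp downstream of the most upstream one. That region also overlaps the annotated gene Gm29439, and to which gene the peak relates was not tested. In spleen and fed heart the strongest promoter peak lay 1189 to 1220 bp downstream (chr7:30878956-30879535), in a region with a mean percentile of 90.9 in spleen, 31.4 in lung and 4.17 in the other 6 tissues. At the most upstream start itself (chr7:30880238-30880420) peaks were found in spleen and lung alone, with mean percentiles of 79.7 and 28.6. The strongest Cd22 region in spleen was intergenic, 7538 bp upstream (chr7:30887530-30888146), with mean percentiles of 96.1 in spleen, 78.8 in lung and 1.90 elsewhere.

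The kinase gene Blk had a promoter percentile of 88.8 and 92.1 in fed and fasting spleen and of 67.6 and 34.9 in lung. The remaining 12 libraries ranged from 0 to 45.3, with 8 of them at 0, so that spleen stood above all others but fasting lung fell within the range of the other tissues. The spleen peak was 2560 to 2571 bp upstream of the start (chr14:63419475-63419837), whereas the lung peaks were at 35 and 308 bp downstream. The 45.3 of fasting brown adipose and the peaks of fasting liver and fed muscle lay 41159 to 42091 bp downstream, near another annotated start. At the start region itself (chr14:63416647-63417427) the percentile was 88.1 and 83.0 in spleen, 67.6 and 34.9 in lung and 32.1 in fasting heart. No other library had a peak there, so that spleen and lung stood above the other tissues at this region. The values for Blk therefore set a distal spleen peak beside a start-proximal lung peak.

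The 2 transcription factor genes were accessible in every tissue. The Pax5 promoter percentile was 88.3 and 91.0 in fed and fasting spleen, 88.8 and 86.5 in lung and 92.1 and 90.2 in white adipose, and the other 10 libraries ranged from 56.3 to 86.3. Ebf1 was at 91.5 and 93.8 in spleen and 91.1 and 85.8 in lung, below brown adipose (95.6 and 96.6) and white adipose in the same state (93.8 and 95.2). Its lowest values were 42.1 in fasting liver and 53.5 in fed kidney. Among the 8 tissues the rank of spleen was 2 for Pax5 and 3 for Ebf1. At the Ebf1 start (chr11:44616852-44617565) fed and fasting brown adipose held 876 and 238 summit tags, or 68.6 and 35.2 times the background. White adipose was at 27.4 and 27.6 times and spleen at 28.1 and 32.5 times, so that spleen and white adipose were close to each other on this scale. The fold enrichment, which uses the tags expected at the peak itself, was 6.30 and 7.52 in fed and fasting brown adipose. It was 7.13 and 6.63 in white adipose and 6.27 and 6.51 in spleen, so that brown adipose did not stand apart by fold.

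For Pax5 the score again joined different elements. In the 14 libraries other than spleen the strongest promoter peak was 5902 to 6052 bp downstream of the most upstream start, before an internal start, in a region (chr4:44703926-44704888) that had a peak in all 16 libraries and that also overlaps the non-coding gene 5730488B01Rik. In spleen it was 1225 to 1231 bp downstream (chr4:44709068-44709445), in a region with a mean percentile of 89.6 in spleen, 37.6 in lung and 0.512 in the other 6 tissues. The sequence at the internal start differed in composition from the spleen element printed above, with 76.1% G and C and 28 CpG sites in 201 bp, against 52.7% and 0. It is shown here with no motif match.
Pax5 internal start, chr4:44704340-44704540, minus strand: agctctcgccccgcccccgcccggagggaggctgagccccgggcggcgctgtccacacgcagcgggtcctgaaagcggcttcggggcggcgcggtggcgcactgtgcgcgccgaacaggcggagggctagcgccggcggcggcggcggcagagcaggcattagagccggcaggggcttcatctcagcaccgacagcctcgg

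The question of which tissues stood apart was tested for spleen and lung together. The tissue was the unit (n = 8, each the mean of its fed and fasting library), and the exact permutation test ran over the 28 choices of 2 tissues, which allow a smallest two-sided p of 0.0357. This smallest exact p was reached by 5 of the 9 genes: Ms4a1, at 80.5 percentile points above the mean of the other 6 tissues, Fcer2a at 72.9, Cd79a at 71.7, Blk at 64.0 and Cd79b at 62.5. Of all 19669 genes with a promoter peak, 3.12% were higher in spleen and lung at this threshold. The other 4 genes were also higher in spleen and lung on average, without reaching the threshold: Cr2 by 44.6 points (exact permutation p = 0.107), Cd22 by 23.5 (exact permutation p = 0.25), Ebf1 by 10.9 (exact permutation p = 0.75) and Pax5 by 8.12 (exact permutation p = 0.357). The Pax5 value moved with the processing: it was 20.1 points at equal depth (exact permutation p = 0.143), -2.36 with peaks ranked by fold, and 50.1 at the most upstream start alone, an alternative chosen after seeing the data (exact permutation p = 0.0714). The median over the 9 genes was 62.5 points, beside 0.273 over all genes tested. After Benjamini-Hochberg adjustment over all genes no gene passed, with a smallest adjusted value of 0.707 for this exact test. With protein-coding transcript starts alone, which leaves out the internal Cd22 start, Cd22 rose to 59.6 points and reached the smallest exact p, 0.0357. Cd79b missed the threshold when peaks were ranked by fold enrichment (51.7 points, exact permutation p = 0.0714) and when liver, heart or either adipose tissue was left out (exact permutation p = 0.0952), and Cr2 passed it without liver (51.0 points, exact permutation p = 0.0476).

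Both spleen libraries exceeded all 14 others for 5 genes (Cd79a, Ms4a1, Cr2, Blk and Fcer2a), and 9.31% of all genes with a promoter peak did so. Both lung libraries exceeded the 12 libraries of the other 6 tissues for 4 genes (Cd79a, Cd79b, Ms4a1 and Fcer2a), and 5.18% of all genes did so. Spleen alone against 7 tissues could not be tested at the 0.05 level. Over the 16 libraries, the pairwise correlation of the 9 genes had a median Pearson r of 0.421, from -0.351 (Ebf1 and Cd22) to 0.966 (Ms4a1 and Fcer2a). These libraries share mice within a state, and the coefficients are descriptions. The 10 other genes whose promoter percentile followed the mean of the 9 most closely over the 16 libraries were Fam71b (r = 0.987), P2ry10, Ankub1, Lax1, Slamf1, Rgs13, Ms4a4c, Dthd1, Trem1 and Themis (r = 0.975).

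Genes of related function were compared by their counts. Of 25 other B lineage genes, 19 had both spleen libraries above all others and 6 reached the smallest p of the exact test for spleen and lung (Cd180, Cxcr5, Tnfrsf13c, Tnfrsf13b, Fcrla and Spib). The difference between spleen and the mean of the other tissues was largest for Tnfrsf13b, a receptor for B cell survival factors (70.9 points), Fcrla (61.4) and Cxcr5, the chemokine receptor of follicular B cells (61.4), and smallest for Ralgps2 (2.47), Lyn (2.89) and Btk (-0.939). T cell markers moved along: 7 of 12 had spleen above all other libraries and 5 of 12 reached p = 0.0357 in the exact test, with a mean promoter percentile of 84.8 in spleen, 68.8 in lung and 26.8 to 48.5 elsewhere, and their part in the result was not tested. Among them Cd8a (72.8 points) and Cd3g (71.7) differed most and Cd2 (29.1), Lck (1.95) and Tcf7 (-18.1) least. For macrophage and myeloid markers, 5 of 10 had spleen above all others (mean 69.0 in spleen, 44.1 in lung), with C1qa at 0 in both tissues, and for erythroid markers 1 of 9 did (61.0 and 41.7), with Rhag and Alas2 at 0 in both.

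Genes of early B cell development and of plasma cells varied. Of 8 precursor B cell genes 4 had both spleen libraries above all others. The largest differences between spleen and the other tissues were those of Dntt (83.6 points), Il7r (80.1) and Rag2 (54.3), whereas Vpreb1 was at 94.6 in spleen and 96.6 in the 6 tissues other than spleen and lung. Of 7 plasma cell genes 3 did, led by Mzb1 (75.8), whereas the plasma cell receptor gene Tnfrsf17 was at 1.71 in spleen and 55.4 in lung. Within gene families, each counted with its member among the 9, 6 of 15 Ms4a genes with a promoter peak, 4 of 8 Src family kinases, 1 of 9 Pax genes (Pax4) and 0 of 4 Ebf genes had spleen above all others. Ms4a4c (82.8 points) and Ms4a7 (80.6) followed Ms4a1 in the Ms4a family.

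Beyond the promoters, the peaks at q below 0.01 of all libraries were merged into 759860 regions, of which 637 lay in the extended bodies of the 9 genes. Of these, 159 were present in both spleen libraries, 97 in both brown adipose, 93 in both white adipose and 86 in both lung libraries. The counts for the remaining tissues ranged from 32 (liver) to 57 (muscle). The shares of all merged regions present in both libraries of a tissue were not computed, so no excess is read from these counts. Regions in both spleen libraries that no deposited peak of another tissue overlapped numbered 31, or 4.87%, against 1.95% of all merged regions. Regions shared by both spleen and both lung libraries and overlapped by no peak of another tissue numbered 14, or 2.20%, against 0.266% of all. Regions present in all 16 libraries numbered 15, or 2.35%, against 3.08% of all. These regions share a few loci and are not independent of each other. Spleen-only regions were found at every one of the 9 loci, with 11 at Ebf1, 7 at Pax5, 4 at Blk, 2 each at Ms4a1, Cr2 and Fcer2a, and 1 each at Cd79a, Cd79b and Cd22. At q below 1e-06 the 31 regions became 4. The share over all merged regions was not computed at that threshold, so whether the loci still exceeded it is not known.

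The strongest spleen-only regions by mean spleen percentile were an element 5579 bp upstream of Ms4a1, inside an intron of the non-coding gene 4930526L06Rik (chr19:11271745-11272030, 84.5), and an Ebf1 intron element 39746 bp downstream of the start (chr11:44656994-44657192, 80.7). Among the 14 regions shared by spleen and lung alone, the strongest in spleen was an Ebf1 intron element 333267 bp downstream of the start (chr11:44950330-44950736), with mean percentiles of 97.0 in spleen and 64.1 in lung. A Pax5 intron element 30031 bp downstream (chr4:44680059-44680888) had 91.4 and 59.8. Both were weaker in lung than in spleen, but the first was picked for its spleen value, and its order partly follows from that choice. Not all of the 14 were weaker in lung: the Cd79a region at chr7:24892137-24892360 had 63.5 in spleen and 67.4 in lung.

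The strongest region in spleen within each extended body was often the promoter of a neighbour. At Cd79a it was the start of Arhgef1 (mean spleen percentile 99.1), at Cr2 that of Cr1l (99.8), at Fcer2a that of Fcor (97.5) and at Cd79b a region 977 bp upstream of Gh (96.9), and each of these 4 had a peak in all 16 libraries. Further protein-coding starts inside the extended bodies belonged to Rps19 (at Cd79a), Ms4a12 and Ms4a5 (Ms4a1), Fam167a (Blk), Ffar1 and Ffar3 (Cd22), and Mcemp1 and Trappc5 (Fcer2a). At Blk the strongest region was an intron peak (chr14:63381724-63382281, 94.7) present in all 16 libraries. At Ms4a1 it lay 21765 bp downstream of the start, past the gene's end (chr19:11244310-11244736), with 96.1 in spleen, 73.3 in lung and 23.3 elsewhere. At Pax5 it was an intron element 37747 bp downstream (chr4:44672617-44673214) with 150 and 164 summit tags in fed and fasting spleen and 96.7 in spleen, 75.2 in lung and 3.83 elsewhere. The strongest regions outside spleen were these same regions at Cd79a, Cd79b, Ms4a1 and Cr2, the internal start at Pax5, the Trappc5 start at Fcer2a, a region in a Ffar1 UTR at Cd22, a region past the gene end at Blk (chr14:63372321-63372815) and one 6213 bp upstream of the start at Ebf1 (chr11:44610765-44611894).

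Ebf1 had the longest body of the 9 genes (390775 bp) and the most regions, with 295 of the 637. It held 62 regions present in both brown adipose libraries and 59 in both white adipose libraries, against 56 in both spleen and 22 in both lung libraries. Regions present in all 4 adipose libraries without a deposited spleen peak numbered 24 over the 9 loci, of which 21 were at Ebf1, 2 at Pax5 and 1 at Cd79a. The shares of such regions over all merged regions were not computed, so no excess in any tissue is read from these counts. EBF1 is also known as a factor of adipocytes. An intron element 275797 bp downstream of the start (chr11:44892810-44893813) was the strongest in spleen, with 142 and 148 summit tags in fed and fasting spleen and percentiles of 98.5 and 98.7. It was also listed in both liver libraries (89.9 and 72.9) and both lung libraries (91.3 and 66.7), and more weakly in fed muscle (28.4), fed heart (15.9), brown adipose (5.96 and 15.1) and white adipose (5.27 and 13.5). Another intron element 40828 bp downstream (chr11:44657440-44658630) was the strongest of the 21 in adipose, with percentiles of 93.6 and 94.4 in fed and fasting brown adipose, 82.1 and 84.1 in white adipose, 9.83 and 6.15 in heart, and no peak in the other 10 libraries. The latter was chosen after its values were seen. It begins just past the spleen-only Ebf1 region named above (chr11:44656994-44657192, mean spleen percentile 80.7), and whether these neighbours form 1 element was not tested. The sequences of the intron elements 275797 and 40828 bp downstream are shown, as the strongest element in spleen and the strongest in adipose without a spleen peak.
Ebf1 spleen intron region, chr11:44893014-44893214, plus strand: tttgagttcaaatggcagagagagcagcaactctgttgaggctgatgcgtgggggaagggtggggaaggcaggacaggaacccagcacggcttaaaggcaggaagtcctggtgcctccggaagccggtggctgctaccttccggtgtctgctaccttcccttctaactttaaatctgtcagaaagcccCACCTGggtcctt
Ebf1 adipose intron region, chr11:44658045-44658245, plus strand: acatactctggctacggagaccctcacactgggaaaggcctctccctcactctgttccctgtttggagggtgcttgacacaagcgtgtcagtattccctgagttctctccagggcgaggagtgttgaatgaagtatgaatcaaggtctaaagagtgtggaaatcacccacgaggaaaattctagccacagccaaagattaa

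**Figure D2:**
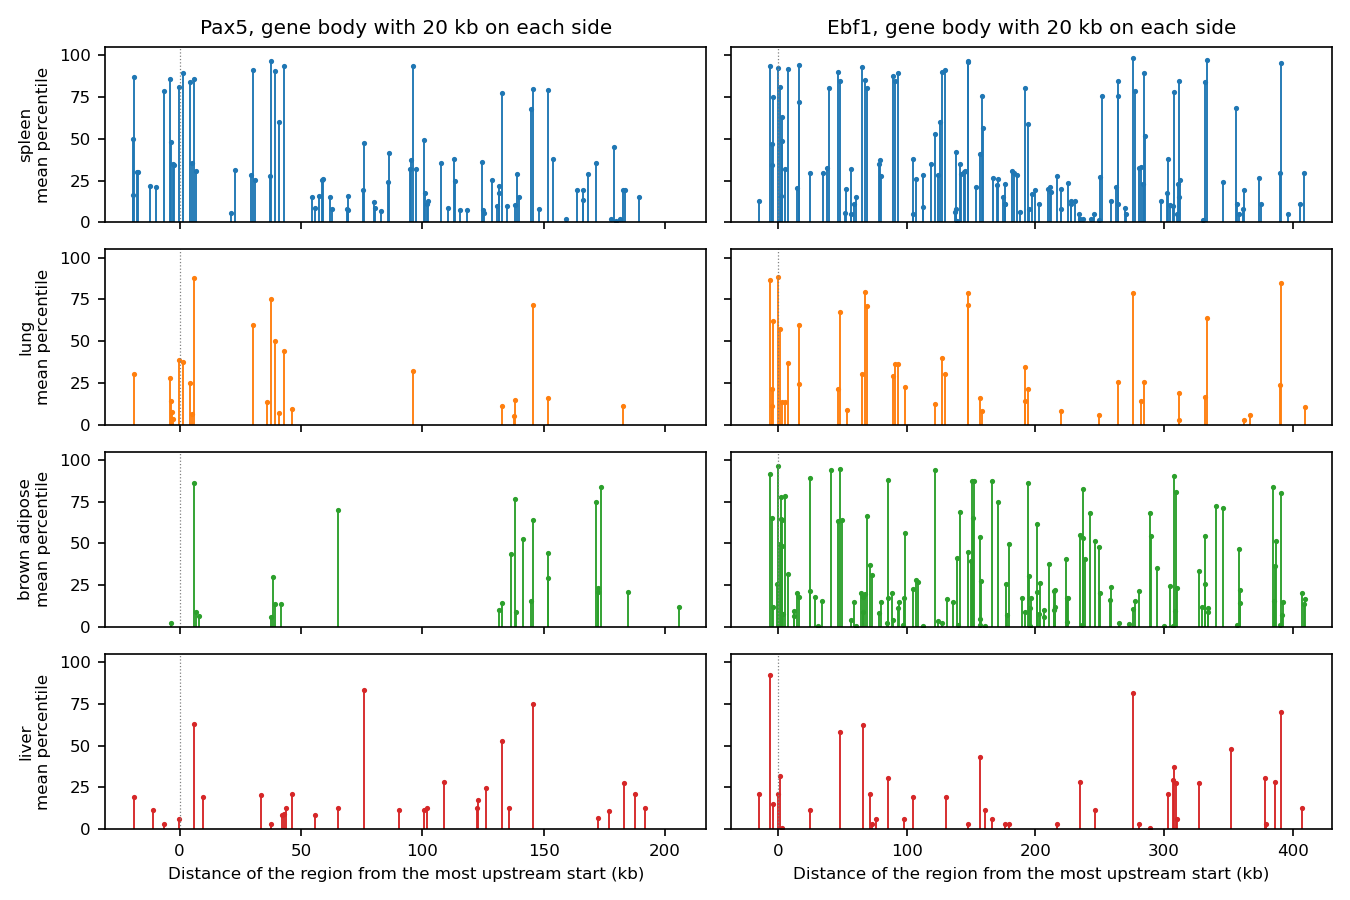
Mean percentile (fed and fasting library, 0 to 100) of each merged region along the Pax5 and Ebf1 loci, by distance of its summit from the most upstream start in kb (dotted line), in spleen, lung, brown adipose and liver. Spleen has 56 regions in both of its libraries at Ebf1 and 30 at Pax5, and brown adipose has 62 and 11.

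Fasting and fed libraries were first compared across tissues. All tissues of a state came from the same mice, so the p-values below do not measure variation between mice. Fasting cannot be told apart from a difference between the groups of mice. For each gene the mean fasting minus fed difference over the 8 tissues was set against all sign flips of the tissues (exact two-sided permutation test, smallest p 0.0078). None of the 9 genes passed an unadjusted threshold of 0.05, while 5.25% of all genes tested did and none of all genes passed after adjustment over all genes (smallest adjusted value 0.821). The nearest was Cr2, which was lower after fasting in 6 of 8 tissues, by 16.8 points on average ± 25.1 (SD, n = 8, exact permutation p = 0.0547). Muscle had the lowest difference (74.0 to 0), and without it the mean was -8.66 points (exact permutation p = 0.109). The mean differences of the other 8 genes ranged from -7.22 points (Cd22) to 6.24 points (Blk), with SDs of 2.80 to 23.5 points over the 8 tissues. Single tissues set these 2 values, which were -1.11 points for Cd22 without heart and 0.651 points for Blk without brown adipose.

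Within spleen and lung the 2 states were compared as single libraries, without a test. In spleen, the promoter percentile was higher after fasting for 8 of the 9 genes, by 0.169 points (Cr2) to 3.92 points (Cd79a), and lower for Cd79b, with a difference of -4.26 points. Of all genes with a peak in both spleen libraries, 49.3% were higher after fasting. In lung, it was lower after fasting for 9 of 9 genes, and 53.5% of all genes with a peak in both lung libraries were lower. The lung differences were -41.1 points for Fcer2a, -32.7 for Blk, -18.6 for Cr2, -7.71 for Cd79a, -7.27 for Ms4a1, -5.25 for Ebf1, -5.09 for Cd22, -3.82 for Cd79b and -2.28 for Pax5. The combination of higher in spleen and lower in lung was found for 8 of 9 genes and for 25.3% of the 15056 genes with a peak in both spleen and both lung libraries. When the libraries were set to equal depth, 7 of the 9 genes were lower in fasting lung and 6 showed the combination. With a 1000 bp window 6 were higher in fasting spleen and 6 showed the combination, and with peaks ranked by fold 7 were lower in fasting lung and 7 showed it. For Blk, Pax5 and Cd22 the spleen and lung values came from different elements. At the regions of their lung peaks the spleen percentile was lower after fasting as well, with differences of -5.10 points at the Blk start, -4.05 at the internal Pax5 start and -2.30 at the internal Cd22 start.

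The same was examined in tags at fixed regions, that is, the regions that held the strongest promoter peak of fasting spleen, with tags divided by the background tags of the library. Intervals are exact 95% intervals that cover counting error of these libraries alone. In spleen, the ratio of fasting to fed was above 1 at 8 of 9 regions (44.4% of all regions near a start) and below 1 at 1 (55.6% of all), from 0.831 (Cd79b) to 1.29 (Fcer2a). Since the regions were chosen in the fasting spleen library, the choice favours ratios above 1 in spleen, and nothing is read from this count. At Fcer2a, the region 6441 bp downstream that was strongest in fed spleen went from a percentile of 92.9 to 79.4. The interval excluded 1 at 0 of the 9, against 2.01% of all regions with an interval above 1 and 7.56% below. In lung, 8 regions had a peak in both libraries, and the ratio was below 1 at all 8 of them (35.4% of all regions near a start, with 64.6% above). The interval lay below 1 at 4 (6.30% of all, with 19.2% above). These were Cr2, from 137 to 53 tags (ratio 0.483, interval 0.345 to 0.668), Fcer2a, from 70 to 28 tags (0.5, 0.310 to 0.785), Ebf1, from 184 to 112 tags (0.760, 0.596 to 0.967), and Cd79b, from 191 to 118 tags (0.772, 0.608 to 0.976). The median ratio was 0.732 over the 8 regions and 1.08 over all 31646 such regions in lung, and 1.10 and 0.963 in spleen. The region upstream of Blk had a peak in fed but not in fasting lung, and at the Blk start the tags went from 65 to 28 (0.538, 0.333 to 0.850).

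**Figure D3:**
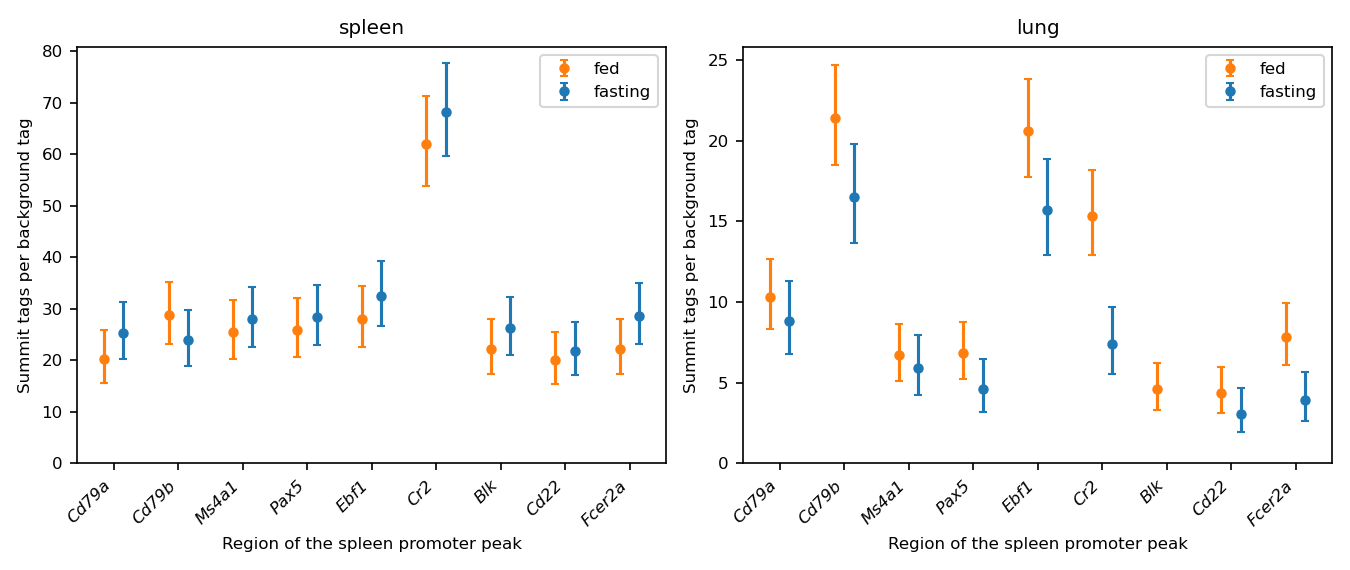
Summit tags per background tag at the region of each gene's spleen promoter peak, in fed and fasting spleen (left) and lung (right), with exact 95% Poisson intervals of the tag count, each point 1 pooled library. The intervals of fed and fasting spleen overlap for every gene, and in lung the fasting point is below the fed point for the 8 genes with both.

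The lung libraries were also compared over all regions shared by spleen and lung alone, which include the Ms4a1 and Fcer2a promoter regions above, and over other genes. All 14 of these regions were weaker in fasting lung, against 78.0% of the 2025 such regions in the genome, and 8 of the 14 were stronger in fasting spleen, against 47.4%. At the strongest Ebf1 region the lung tags went from 143 to 45 (ratio 0.393, interval 0.275 to 0.553), while the spleen ratio was 0.996 (0.786 to 1.26). The strongest spleen regions of the other genes varied. Spleen ratios were 0.512 at Blk, 0.566 at Cd79b and 0.568 at Fcer2a, with intervals below 1. They were 0.913 at Cd79a, 1.25 at Ms4a1, 1.04 at Pax5, 1.08 at Cr2 and 1.04 at Cd22, with intervals that held 1. The lung ratios there ranged from 0.640 at Ms4a1 to 0.975 at Cd79a and 1.04 at Cr2. Of 25 other B lineage genes with a peak in both lung libraries 21 were lower after fasting (median -7.73 points), led by Ikzf3 (-30.2) and Tnfrsf13b (-27.8), and Vpreb3 was higher (10.1). T cell markers were lower for 8 of 9 (median -4.58), and another 3 (Cd3e, Cd8a and Cd4) had a peak in fed lung and none in fasting lung. Of the myeloid markers with a peak in both lung libraries 5 of 7 were lower (median -12.0), as were 2 of 2 adipocyte markers (median -14.0), 3 of 4 brown adipose markers (-3.41), 2 of 3 muscle markers (-0.901) and 1 of 2 heart markers (-5.28). Of the lung markers 1 of 5 was lower (median 7.24), of the kidney markers 1 of 3 (5.53) and of the erythroid markers 2 of 5 (0.207). How far these cell types took part in the difference at the 9 genes was not tested. With 1 pool per state, the difference between lung pools and an effect of fasting cannot be told apart.

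**Figure D4:**
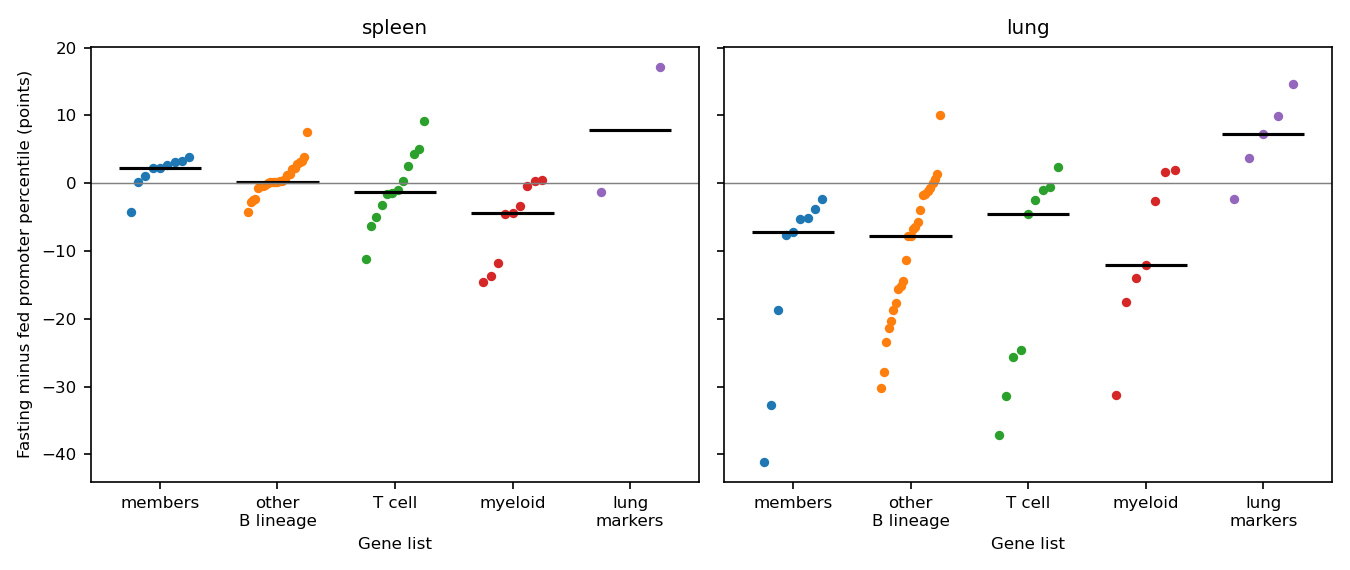
Fasting minus fed promoter percentile (points) of each gene with a peak in both libraries of spleen (left) or lung (right), by gene list, with the median as a black line. In lung the 9 members lie between -41.1 and -2.28 and the medians of the B lineage, T cell and myeloid lists are below 0, while the median of the lung markers is 7.24.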

How the data were processed

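ATAC-Seq libraries of 8 tissues from fed and fasted mice were analysed, 1 pooled library of 3 mice per tissue and state. The authors aligned reads with Bowtie2 to GRCm38, removed duplicates and called peaks with MACS2, per the submitters' processing notes, with versions not given in the sources used here. From their names and row numbers, the lists deposited appear to have been capped at a common number of rows by peak p-value. Removal of blacklisted regions after this cap is likewise inferred, and the paper's methods state neither step. In these lists the authors gave, for each peak, a score, the fold enrichment (a ratio of summit tags to expected tags), and −log10 of the p-value and q-value. The files hold no read totals.

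From these, the percentile of the −log10 p-value was computed within each library (ties by midrank), and peaks were assigned by summit to GENCODE vM21 starts within 3000 bp or to gene bodies extended by 20 kb. A peak counted as present at q below 0.01. In 8 of the 16 libraries every row passed this threshold, so that the weakest peak was not set by it but, it appears, by the row cap. Summit tags were recovered from the fold and p-value and came out whole, within 0.001, for 98.3% to 99.99% of rows. Intervals are exact (95%) and cover counting error alone. Chromosome lengths of the reference fitted the peaks, and sequences were read from the GRCm38 genome. RefSeq promoter sequences were listed for 6 of the 9 genes and were not printed.

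The comparisons used exact permutation tests over tissues, with Benjamini-Hochberg adjustment over 19669 genes. The 9 genes and all gene lists were chosen with earlier results of these data known. Named were all 9 genes, their strongest regions in and outside spleen, the 3 highest and 3 lowest genes of the lists described, neighbours, and the 10 genes most like the mean. Other genes and regions were named after their values were seen, and a few items that this rule names are not reported here. Alternatives were the ranking value, window, starts, depth, q threshold, overlap rule and leaving out each tissue. Scripts were tested on simulated data and used Python 3.11.15, numpy, scipy and pandas.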

Additional observations from a re-analysis of the deposited data

Results flagged for a closer look

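For 8 of the 9 genes the promoter percentile was higher in fasting than in fed spleen and lower in fasting than in fed lung, so that the fasting minus fed difference had opposite signs in these 2 tissues. The gap between the 2 differences (spleen minus lung, in percentile points) was 44.2 for Fcer2a, 36 for Blk, 18.8 for Cr2, 11.6 for Cd79a, 9.55 for Ms4a1, 7.53 for Ebf1, 6.08 for Cd22 and 4.98 for Pax5. The gap was not tested, since each state of a tissue was 1 pooled library, and fasting cannot be told apart from a difference between pools. For Blk, Pax5 and Cd22 the gap sets different elements beside each other: at the regions of their lung peaks the spleen difference was -5.10, -4.05 and -2.30 points, so that the signs were not opposite there. For Fcer2a the strongest peak of fed and of fasting spleen lay in different regions, and the spleen difference at the most upstream start was 3.12 points. At equal depth 6 of the 9 genes showed the opposite signs, with a 1000 bp window 6, and with peaks ranked by fold 7.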

How the results depend on the processing

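Promoter peaks in both spleen libraries were found for 9 genes under all alternatives, and in both lung libraries for 9 genes, or 7 at equal depth. The count of genes at the smallest exact p for spleen and lung (5) ranged from 0 to 5 when 1 tissue was left out; it was 0 without spleen and 0 without lung, where the 1 remaining tissue of the pair allows a smallest exact p of 0.143. The count for fasting across tissues (0) was 1, Cr2 each time, when peaks were ranked by fold and by percentile among peaks at q below 0.01, and ranged from 0 to 1 when 1 tissue was left out (1 without brown adipose and 1 without spleen). The 31 spleen-only regions became 51 when an overlap had to cover 50% of both lengths and 4 at q below 1e-06. Directions that reversed: Pax5 in spleen and lung ranked by fold (-2.36 points), and fasting minus fed ranked by fold for Ms4a1 (0.121) and Ebf1 (0.953), at equal depth for Cd79b (-1.45) and Blk (-1.11), and with 1 tissue left out for Ebf1 (from -2.59 to 1.10, the latter without liver), Ms4a1 (from -1.04 to 0.326, the latter without lung) and Pax5 (from -3.30 to 0.167, the latter without kidney). The most upstream start of each gene was an alternative chosen after seeing the data, and with it 7 genes had spleen above all other libraries. The cause of these changes was not tested. The test of fasting paired the fed and fasting library of each tissue, and no replicate numbers existed within a tissue and state. Libraries with few background tags, such as liver and spleen, limit the detection of weak peaks.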
